A study of Mus musculus with 4 samples.

Results

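The 10 genes described here make or use glutathione, or are textbook targets of the transcription factor NRF2: Slc7a11, Gclc, Gclm, Gsta1, Gsta4, Gpx2, Gpx3, Nqo1, Hmox1 and Txnrd1. They were chosen by symbol from the 27998 genes counted in single cells of 2 mouse pancreatic tumors, and all 10 were found. The choice was made with earlier results of these data known. The tumors came from KPC mice on the C57BL/6J background, whose alleles include Trp53LSL-R172H/+ and Pdx1-Cre. Pdx1-Cre switches on the conditional mutant alleles in the pancreatic epithelial lineage. Where epithelial cells are set against other cell types, cell type and switched-on alleles therefore cannot be told apart. Every group compared here comes from tumors with the same alleles, and there is no tumor-free control. Each tumor was digested for 45 min at 37 C and sorted into 2 fractions with 1 library each. The sorted CAF fraction, aimed at cancer-associated fibroblasts, was gated as DAPI-CD45-CD31-EpCAM-PDPN+, and the all live fraction as DAPI-. Each fraction therefore has 2 libraries, of tumor 1 and tumor 2.

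NRF2, encoded by Nfe2l2, is kept low by the adaptor KEAP1 and accumulates when oxidants or electrophiles modify KEAP1. It then binds antioxidant response elements (AREs) and raises genes for glutathione synthesis, conjugation of reactive carbonyls, quinone reduction, heme breakdown and thioredoxin recycling.

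A search of RefSeq promoters (GRCm38.p6, 250 bases before to 50 after each start) showed where an ARE-like core lies near these genes. Promoter entries were matched for 7 of the 10 genes, with 9 start sites; Gsta4, Hmox1 and Gclc were not matched. The core TGACNNNGC, searched on both strands, was found in Gclm and at the second start of Txnrd1, and in 12.4% of all 32851 promoters of the same length. TATAAA, searched likewise, was found in Nqo1 and in 13.6% of all promoters, and the AP-1 motif TGANTCA, which ARE-like sequences can contain, in none of the 7 genes and 7.81% of all promoters. The 3 stretches that hold a match are shown because they were the only matches of this search among the members. Capitals mark the match. In Gclm (chr3:122245393-122245461, plus strand) the core lies on the minus strand, 134 to 126 bases before the start. In Txnrd1 (chr10:82859084-82859152, plus strand) it lies on the minus strand, 92 to 84 bases before the start. In Nqo1 (chr8:107403206-107403264, minus strand) TATAAA lies 29 to 24 bases before the start.
Gclm: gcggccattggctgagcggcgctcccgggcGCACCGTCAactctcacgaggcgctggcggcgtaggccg
Txnrd1: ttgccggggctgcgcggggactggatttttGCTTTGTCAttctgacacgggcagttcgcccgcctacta
Nqo1: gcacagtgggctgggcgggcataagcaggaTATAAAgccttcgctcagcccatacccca
A match describes letters only. In the same build Gclc (77754535 to 77794489), Gsta4 (78191966 to 78209349) and Gsta1 (78230669 to 78242683) are neighbours within 488 kb of chromosome 9. Nqo1 and Hmox1 lie on chromosome 8, Gclm and Slc7a11 on chromosome 3, Gpx2 on chromosome 12, Gpx3 on chromosome 11 and Txnrd1 on chromosome 10.

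The 4 libraries held 8282 barcodes and 85230726 UMIs (transcript molecules counted once each), between 14972652 and 30950993 a library, and 7827 cells were kept in 27 clusters. Rebuilt cell classes went against 1 label: 76.2% of the cells in the sorted CAF library of tumor 1 were ductal epithelial-like and 12.5% fibroblast-like, while the sorted CAF library of tumor 2 was 10.6% ductal-like and 72.5% fibroblast-like. The all live libraries were 55.4% and 5.20% ductal-like and 7.25% and 3.45% fibroblast-like. Ductal-like cells of tumor 1 had little Epcam, 6.85 CPM in the sorted CAF library and 56.2 CPM in the all live library, whereas those of tumor 2 had 169 CPM in the sorted CAF library and 1796 CPM in the all live library. Levels are given as CPM, the gene's UMIs per 1000000 UMIs summed over the cells named, with 95% exact Poisson intervals that cover counting error only. Whole-library differences between the fractions therefore mix cell makeup with levels per cell, and each gene is given per class. Fewer cells of a type and less RNA per cell cannot be told apart in whole-library sums.

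**Figure D1:**
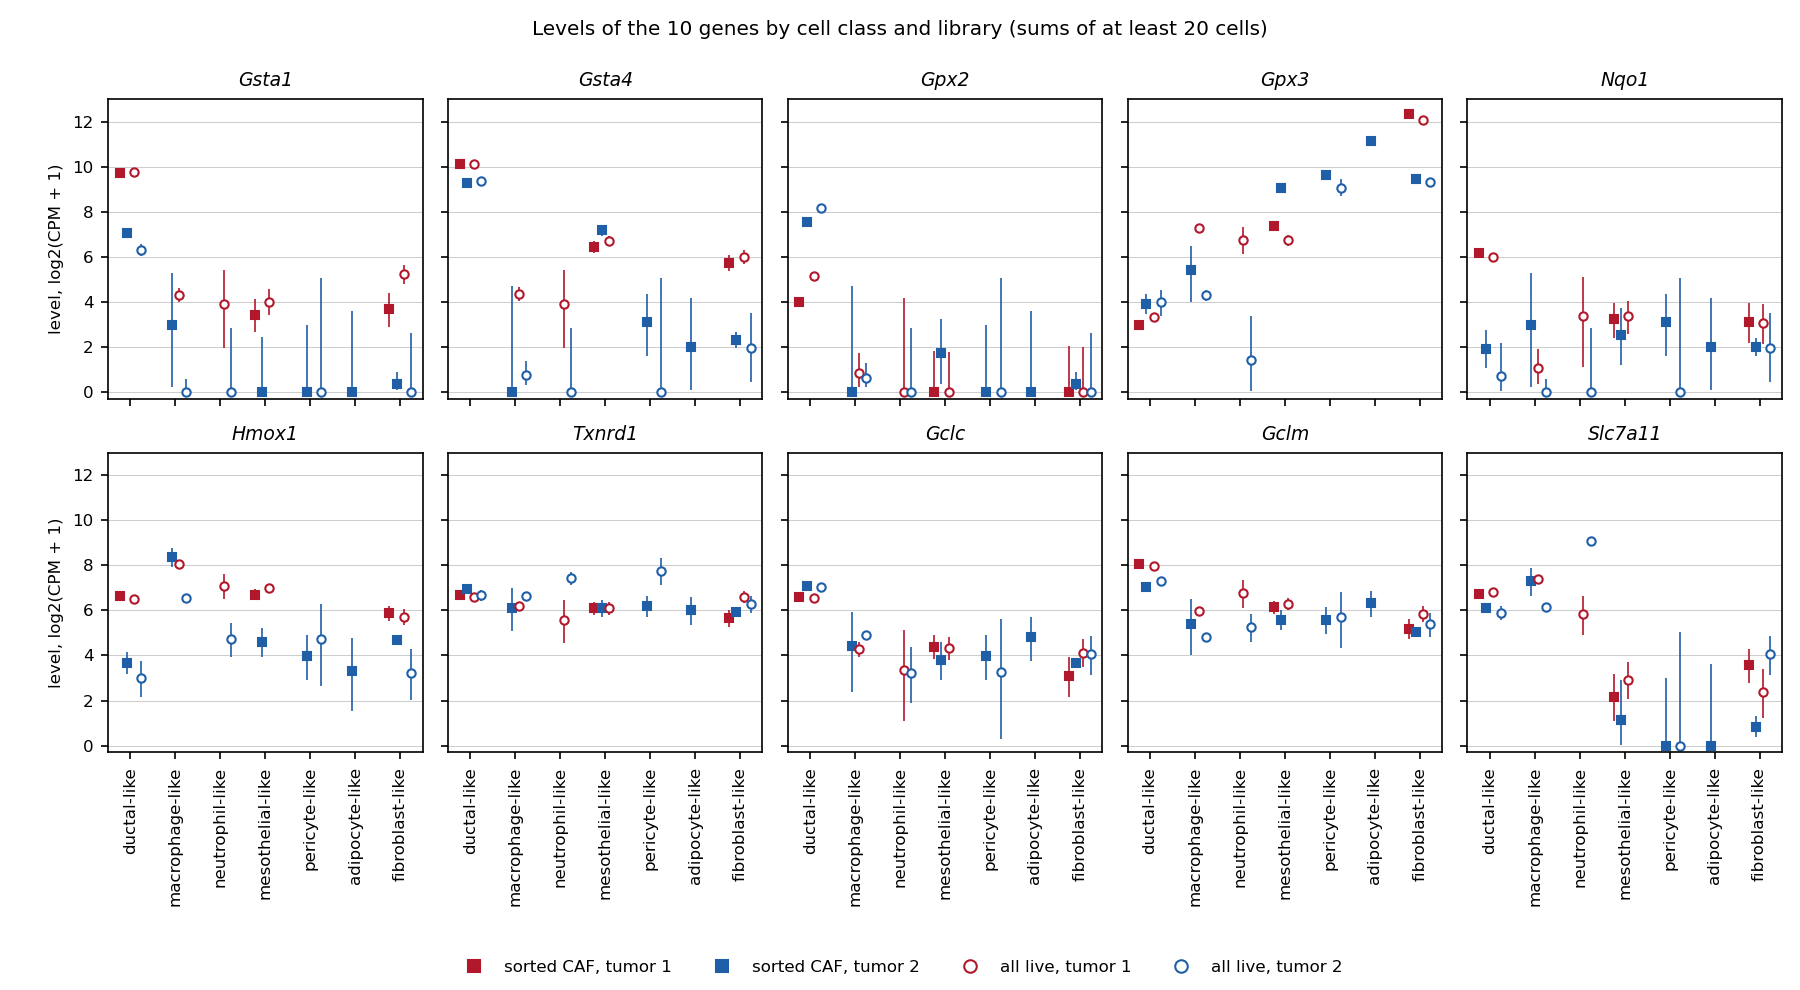
Levels of the 10 genes as log2(CPM + 1) in 7 cell classes; each point is the sum of at least 20 cells of 1 library, squares are sorted CAF and circles all live, red is tumor 1 and blue tumor 2, and bars are 95% exact Poisson intervals. Ductal-like cells hold the top level of Gsta1, Gsta4, Gpx2, Gclc and Gclm and, in tumor 1 only, of Nqo1, fibroblast-like and adipocyte-like cells that of Gpx3, macrophage-like cells that of Hmox1 and neutrophil-like cells of tumor 2 that of Slc7a11.

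Ductal-like cells differed from fibroblast-like cells in most of the 10 genes. Gclc, Gclm, Slc7a11, Gsta4 and Gpx2 were higher and Gpx3 was lower in ductal-like cells, 5 and 1 of the 10 genes tested. Of all 12635 genes tested, 23.8% were called by the same rule, 9.71% higher and 14.1% lower, at a Benjamini-Hochberg adjusted p under 0.05 in edgeR's quasi-likelihood test with 2 tumors per class. With the tumor as a block 7 members were called, and 32.1% of all genes. The median log2 fold change was 3.18 over the 10 genes and 0.07 over all genes. Against macrophage-like cells, Gsta4, Gpx2, Nqo1, Gclc and Gclm were higher and none was lower, where 27.5% of all genes were called, 14.8% higher and 12.7% lower. With the tumor as a block 7 members were called, and 35.7% of all genes. The medians there were 2.06 over the 10 genes and 0.20 over all genes. Because the 10 genes were chosen with earlier results of these data known, the values over all genes give scale only. They are no test of the 10 genes as a set.

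Glutathione is built from cysteine by a rate-limiting ligase. Slc7a11 encodes the cystine importer of system xc-, which brings in the cysteine, and Gclc and Gclm encode the catalytic and the modifier subunit of glutamate-cysteine ligase. Gclc stood at 94.8 and 133 CPM in ductal-like cells of tumors 1 and 2, against 12.1 and 11.95 CPM in fibroblast-like cells. Both tumors showed the same order, and the log2 fold change of Gclc was 3.29 ± 0.38 (SE; edgeR adjusted p = 0.00100). Gclm stood at 256 and 139 CPM in ductal-like cells, against 46.4 and 32.3 CPM in fibroblast-like cells, with no overlap (log2 fold change 2.47 ± 0.556; edgeR adjusted p = 0.0141). Both subunits were also higher than in macrophage-like cells, which had 18.8 and 29.0 CPM of Gclc (log2 fold change 2.07 ± 0.358; edgeR adjusted p = 0.00396) and 62.3 and 27.2 CPM of Gclm (2.06 ± 0.546; 0.0243). The Gclm call against fibroblast-like cells did not hold without tumor 1 of the ductal-like sums (edgeR adjusted p = 0.0511) or without either fibroblast-like sum (0.0649 without tumor 1, 0.126 without tumor 2; range over its alternatives 1.46e-06 to 0.126). Against macrophage-like cells it did not hold without ductal-like tumor 1 (0.0992) or macrophage-like tumor 2 (0.166; range 5.01e-05 to 0.166), while the calls of Gclc in both comparisons held in every alternative run.

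Slc7a11 separated ductal-like and myeloid cells from the stroma. Its level was 109 and 64.45 CPM in ductal-like cells, against 7.52 and 1.67 CPM in fibroblast-like cells, a log2 fold change of 4.60 ± 0.838 (edgeR adjusted p = 0.00605, and 0.0526 without fibroblast-like tumor 2, the highest of its alternatives, the lowest being 1.27e-15). Macrophage-like cells had 166 and 72.0 CPM, and their log2 fold change over fibroblast-like cells was 5.15 ± 0.855 (edgeR adjusted p = 0.00292), a call that held in every alternative run. Ductal-like cells were not separated from macrophage-like cells (log2 fold change -0.55 ± 0.682; edgeR adjusted p = 0.603). Mesothelial-like cells, with 5.06 and 1.08 CPM, lay in the range of fibroblast-like cells, and no UMI of Slc7a11 was seen in 83 pericyte-like cells, which allows up to 5.40 CPM.

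Gsta1 and Gsta4 encode alpha-class glutathione S-transferases, which join glutathione to reactive compounds, Gsta4 in particular to the lipid aldehyde 4-hydroxynonenal. Gsta4 stood at 1110 and 630 CPM in ductal-like cells, against 57.7 and 3.87 CPM in fibroblast-like cells (log2 fold change 5.04 ± 1.52; edgeR adjusted p = 0.0444) and 19.9 and 0.677 CPM in macrophage-like cells (6.37 ± 1.63; 0.0208). The fibroblast comparison was near the threshold, and it did not pass in the all live libraries alone (edgeR adjusted p = 0.0868), without ductal-like tumor 1 (0.0936), without fibroblast-like tumor 2 (0.171) or at the coarser clustering (0.0517), with a range over its alternatives of 1.89e-18 to 0.171. The macrophage comparison did not pass without macrophage-like tumor 2 (0.0698; range 2.28e-25 to 0.0698). Mesothelial-like cells came next in level, with 94.4 and 137 CPM of Gsta4.

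Gsta1 was higher in ductal-like cells within each tumor, with levels that differed several-fold between the tumors. It stood at 861 and 110 CPM in ductal-like cells, against 24.2 and 0.264 CPM in fibroblast-like cells and 18.8 and 0.135 CPM in macrophage-like cells. The ratio to fibroblast-like cells was 35.5 (95% counting interval 27.5 to 46.8) in tumor 1 and 418 (142 to 2034) in tumor 2. The edgeR test did not pass (log2 fold change 5.70 ± 2.26, adjusted p = 0.107, against fibroblast-like cells; 5.74 ± 2.25, 0.0958, against macrophage-like cells). With the tumor as a block, the edgeR adjusted p was 0.00114 (6.66 ± 0.808) against fibroblast-like cells, where the alternatives ranged from 2.97e-22 to 0.323, and 0.000955 (6.70 ± 0.821) against macrophage-like cells, where they ranged from 9.23e-23 to 0.289. After thinning every cell to 1500 UMIs, 42.2% of ductal-like cells held a Gsta1 UMI (73.2% unthinned, median 17103 UMIs a cell), against 0.461% of fibroblast-like cells (2.84% unthinned, median 8644) and 0.422% of macrophage-like cells (2.24% unthinned, median 4087). None of 120 T or NK-like cells held one (median 1968.5 UMIs), which allows a share of up to 3.03%. Summed ductal markers in fibroblast-like cells moved with the Gsta1 level there, at 287 and 855 CPM in the sorted CAF and all live libraries of tumor 1 and 47.4 and 43.8 CPM in those of tumor 2 (1, 0, 0 and 5 of the 12 markers at 0), against 20670, 20790, 10470 and 16430 CPM in the ductal-like cells of these libraries; the part of ductal RNA in these low levels was not tested. The last 300 bases of the Gsta1 transcript were 99.3% identical to Gm3776 and 94.3% to Gsta2, so the authors' counting could split or drop reads among these copies and Gsta1 levels are uncertain to that extent.

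The glutathione peroxidases Gpx2 and Gpx3 reduce peroxides with glutathione, Gpx2 inside epithelial cells and Gpx3 as a secreted protein. Between ductal-like and fibroblast-like cells they went in opposite directions. Gpx2 stood at 25.2 and 224.5 CPM in ductal-like cells, against 0 and 0.264 CPM in fibroblast-like cells, which held 3 Gpx2 UMIs in 1303 cells (0.218 CPM, interval 0.0449 to 0.637). In tumor 2 the ratio was 851 (counting interval 290 to 4136), and the edgeR adjusted p over both tumors was 0.00304. Against macrophage-like cells, with 0.805 and 0.542 CPM, the log2 fold change was 7.29 ± 1.24 (edgeR adjusted p = 0.00363), and both calls held in every alternative run.

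Gpx3 was highest in stromal classes. Its level was 8.10 and 14.35 CPM in ductal-like cells and 153 and 18.96 CPM in macrophage-like cells, against 4731 and 701 CPM in fibroblast-like cells. It was lower in ductal-like than in fibroblast-like cells (log2 fold change -7.85 ± 1.43; edgeR adjusted p = 0.00605), in every alternative run. Against macrophage-like cells the ductal-like level did not pass (-3.12 ± 1.16; edgeR adjusted p = 0.0816), though it did by DESeq2 (adjusted p = 0.0051) and without macrophage-like tumor 2 (0.0491; range over its alternatives 5.28e-08 to 0.553). It was lower in macrophage-like than in fibroblast-like cells (-4.73 ± 1.24; edgeR adjusted p = 0.0218), a call that ended without fibroblast-like tumor 1 (-2.88; 0.117) or without macrophage-like tumor 2 (0.0934; range over its alternatives 2.83e-16 to 0.117). After thinning to 1500 UMIs, 63.9% of fibroblast-like cells held a Gpx3 UMI (94.6% unthinned), against 1.66% of ductal-like cells (12.9% unthinned). Adipocyte-like cells had 2284 CPM in their 1 library with at least 20 cells, and pericyte-like cells 781 CPM in the sorted CAF library and 537 CPM in the all live library of tumor 2. Mesothelial-like cells had 134 and 490 CPM, which is 0.0284 times (counting interval 0.0256 to 0.0314) and 0.699 times (0.634 to 0.768) the fibroblast-like level of the same tumor.

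Nqo1 encodes a quinone reductase, and Hmox1 encodes heme oxygenase 1, which opens the heme ring. Nqo1 stood at 66.9 and 1.95 CPM in ductal-like cells, against 1.07 and 0.135 CPM in macrophage-like cells (log2 fold change 6.11 ± 1.70; edgeR adjusted p = 0.0293). That call rested on tumor 1, since without its ductal-like sum the log2 fold change was 1.60 (edgeR adjusted p = 0.397), and it also ended without macrophage-like tumor 1 (0.0777) or tumor 2 (0.183) and in the all live libraries alone (0.0600; range over its alternatives 8.5e-16 to 0.397). Against fibroblast-like cells, with 7.52 and 2.99 CPM of Nqo1, the ductal-like level was 8.89 times as high in tumor 1 (counting interval 5.61 to 15.02) and 0.651 times in tumor 2 (0.260 to 1.43). That comparison did not pass (3.07 ± 1.35; edgeR adjusted p = 0.140), but did without ductal-like tumor 2 (4.08; 0.00417; range 6.52e-07 to 0.452).

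Hmox1 was highest in macrophage-like cells. It stood at 94.1 and 9.97 CPM in ductal-like cells. Macrophage-like cells had 264 and 97.5 CPM, against 54.8 and 23.7 CPM in fibroblast-like cells. The edgeR test of macrophage-like over fibroblast-like cells did not pass without pairing (log2 fold change 2.46 ± 1.13, adjusted p = 0.153) and passed with the tumor as a block (2.33 ± 0.554, 0.0150; range over its alternatives 4.43e-06 to 0.443). Ductal-like against macrophage-like cells gave -1.79 ± 1.09 (edgeR adjusted p = 0.269) and, with the tumor as a block, -2.34 ± 0.564 (0.0162; range 0.00254 to 0.651). Ductal-like over fibroblast-like cells gave a log2 fold change of 0.66 ± 1.08 (edgeR adjusted p = 0.706). Without ductal-like tumor 1 the unpaired edgeR test against macrophage-like cells passed (-4.48; adjusted p = 0.0296).

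Txnrd1, the cytosolic reductase that recycles thioredoxin, stayed within 0.75 on the log2 scale in all 4 class comparisons, while each other member reached at least 2.46 in one of them. It stood at 99.1 and 114 CPM in ductal-like cells, 72.2 and 98.98 CPM in macrophage-like cells, 67.1 and 68.1 CPM in mesothelial-like cells and 72.7 and 61.2 CPM in fibroblast-like cells. The largest of its class differences tested, ductal-like over fibroblast-like, was 0.75 ± 0.306 on the log2 scale and did not pass (edgeR adjusted p = 0.118). The call passed when ductal-like cluster 5 was left out, an alternative chosen after seeing the data (0.86; 0.0495; range over its alternatives 0.0495 to 0.631).

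Mesothelial-like cells, which line the organ surface, were not separated from fibroblast-like cells in any of the 10 genes by edgeR, where 1.18% of all genes were called (2.54% with the tumor as a block). At an unadjusted p under 0.05, 1 gene stood out, Gpx3 (log2 fold change -3.14 ± 1.15; edgeR adjusted p = 0.324), and DESeq2 called the same 1 gene (-3.17; adjusted p = 0.0298; range over its alternatives 9.97e-08 to 1). Macrophage-like against fibroblast-like cells gave 2 higher members, Slc7a11 and Gclc, and 1 lower, Gpx3, where 27.9% of all genes were called, 11% higher and 16.9% lower (35% with the tumor as a block, which called 4 members). Gclc there was 18.8 and 29.0 CPM in macrophage-like cells against 12.1 and 11.95 CPM in fibroblast-like cells (1.22 ± 0.362; edgeR adjusted p = 0.0366). The Gclc call ended without either fibroblast-like sum (0.178 without tumor 1, 0.156 without tumor 2), without macrophage-like tumor 2 (0.271), in the all live libraries alone (0.249) and without the filter on low counts (0.0527), with a range of 0.0221 to 0.271.

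**Figure D2:**
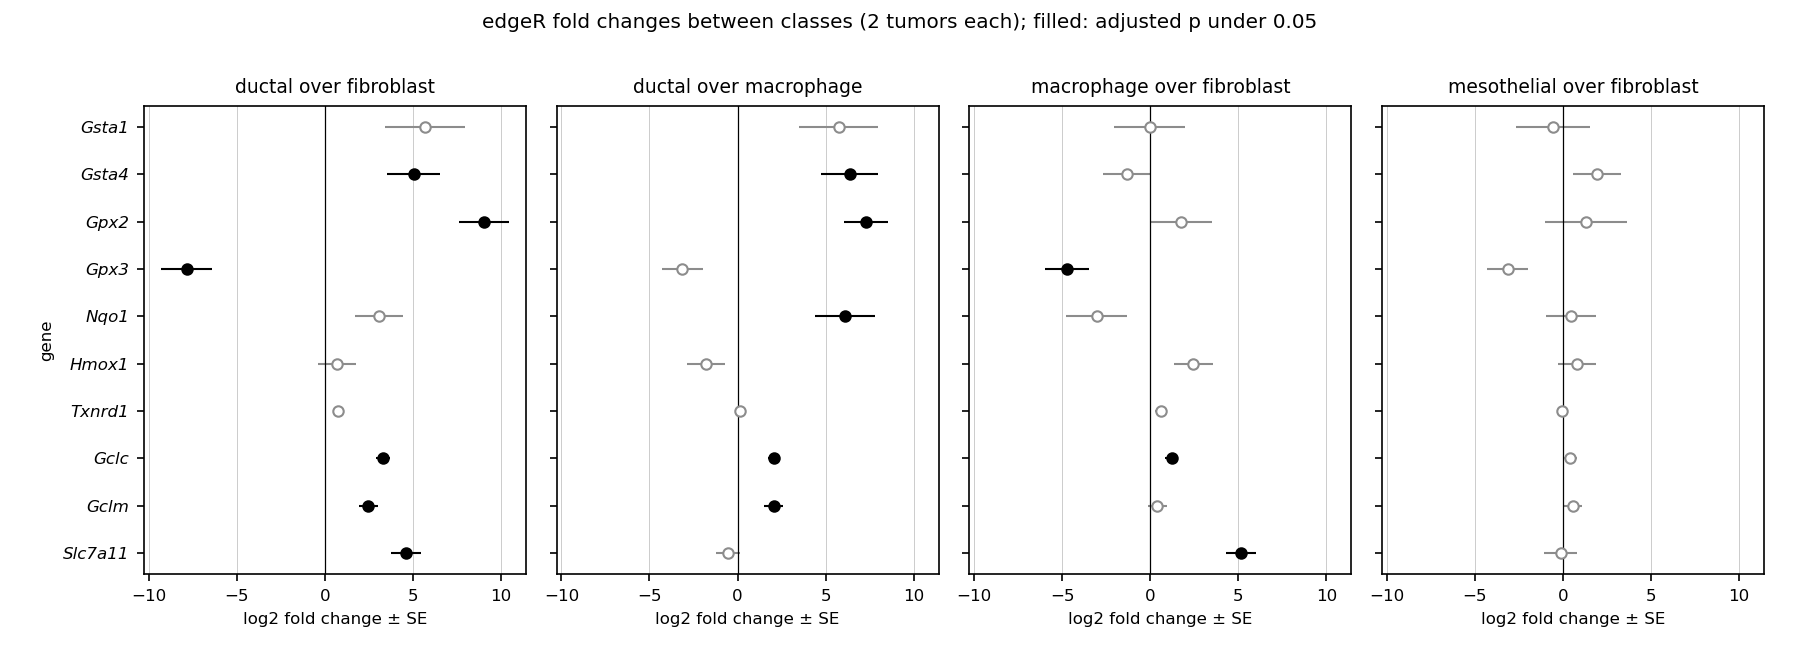
Log2 fold changes of the 10 genes in 4 class comparisons, with bars of 1 SE and 2 tumors per class; filled points passed an edgeR adjusted p of 0.05. Gpx3 lies far left and Gpx2 far right of 0 in ductal over fibroblast, and no point is filled in mesothelial over fibroblast.

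Within the ductal-like class the 10 genes split by cluster. Cluster 2 (472 cells, all of tumor 1) had Sprr1a and Gkn2 among its top genes. It held the top Gsta4 level of the clusters of at least 10 cells, 1647 CPM in the sorted CAF and 1490 CPM in the all live library. It also held 109 and 87.8 CPM of Nqo1 and 332 and 284 CPM of Gclm. Cluster 4 (465 cells, again nearly all tumor 1) had Sprr1a, Npy and Cpe among its top genes. It was low in Gsta1, with 176 CPM in the sorted CAF and 186 CPM in the all live library. Nqo1, with 17.4 and 16.4 CPM, and Gpx2, with 3.78 and 7.87 CPM, were low there too. The same cluster was high in Hmox1, at 185 CPM in the sorted CAF and 139 CPM in the all live library, so Hmox1 and Nqo1 went apart in cluster 4. In cluster 2 both genes were high. Cluster 3, whose cells were shallow (median 7205 UMIs), held 1261 and 1476 CPM of Gsta1 in tumor 1 but only 18.8 and 9.99 CPM of Gclc.

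Cluster 5 was the only ductal-like cluster with a high Epcam level in tumor 1 (2891 CPM in the all live library, 0 to 22.8 CPM in the other clusters of tumor 1), and it held 226 of the 301 ductal-like cells of tumor 2. Gpx2 was high there, at 209 CPM (interval 166 to 259) in cluster 5 of tumor 1 against 23.5 CPM (22.1 to 24.99) in the other ductal clusters of tumor 1, and at 273 CPM (254 to 292) against 110 CPM (91.8 to 130) in tumor 2. Gsta1 went the other way, at 127 CPM (94.5 to 168) in cluster 5 against 868 CPM (859 to 877) in the others in tumor 1, and 88.3 CPM (77.8 to 99.8) against 162 CPM (140 to 187) in tumor 2. Both genes thus kept their direction in both tumors, beyond counting error. Nqo1 was 10.2 CPM (2.77 to 26.1) in cluster 5 against 67.4 CPM (64.9 to 69.9) in the others in tumor 1, and at 1.38 CPM (0.376 to 3.53) against 3.30 CPM (0.898 to 8.44) in tumor 2, where the intervals overlap. Slc7a11 was lower in cluster 5 of tumor 1 (15.3 CPM, 5.61 to 33.2, against 110 CPM, 107 to 113, in the others) and overlapped in tumor 2 (66.6 CPM, 57.5 to 76.7, against 59.3 CPM, 46.4 to 74.7, in the others). Gclc was lower in cluster 5 of tumor 1 (53.5 CPM, 33.1 to 81.7, against 95.2 CPM, 92.3 to 98.1, in the others) and higher in tumor 2 (164 CPM, 150 to 180, against 58.5 CPM, 45.7 to 73.8, in the others). Clusters were chosen after seeing the data and each tumor gives 1 value, so these differences have no test.

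**Figure D3:**
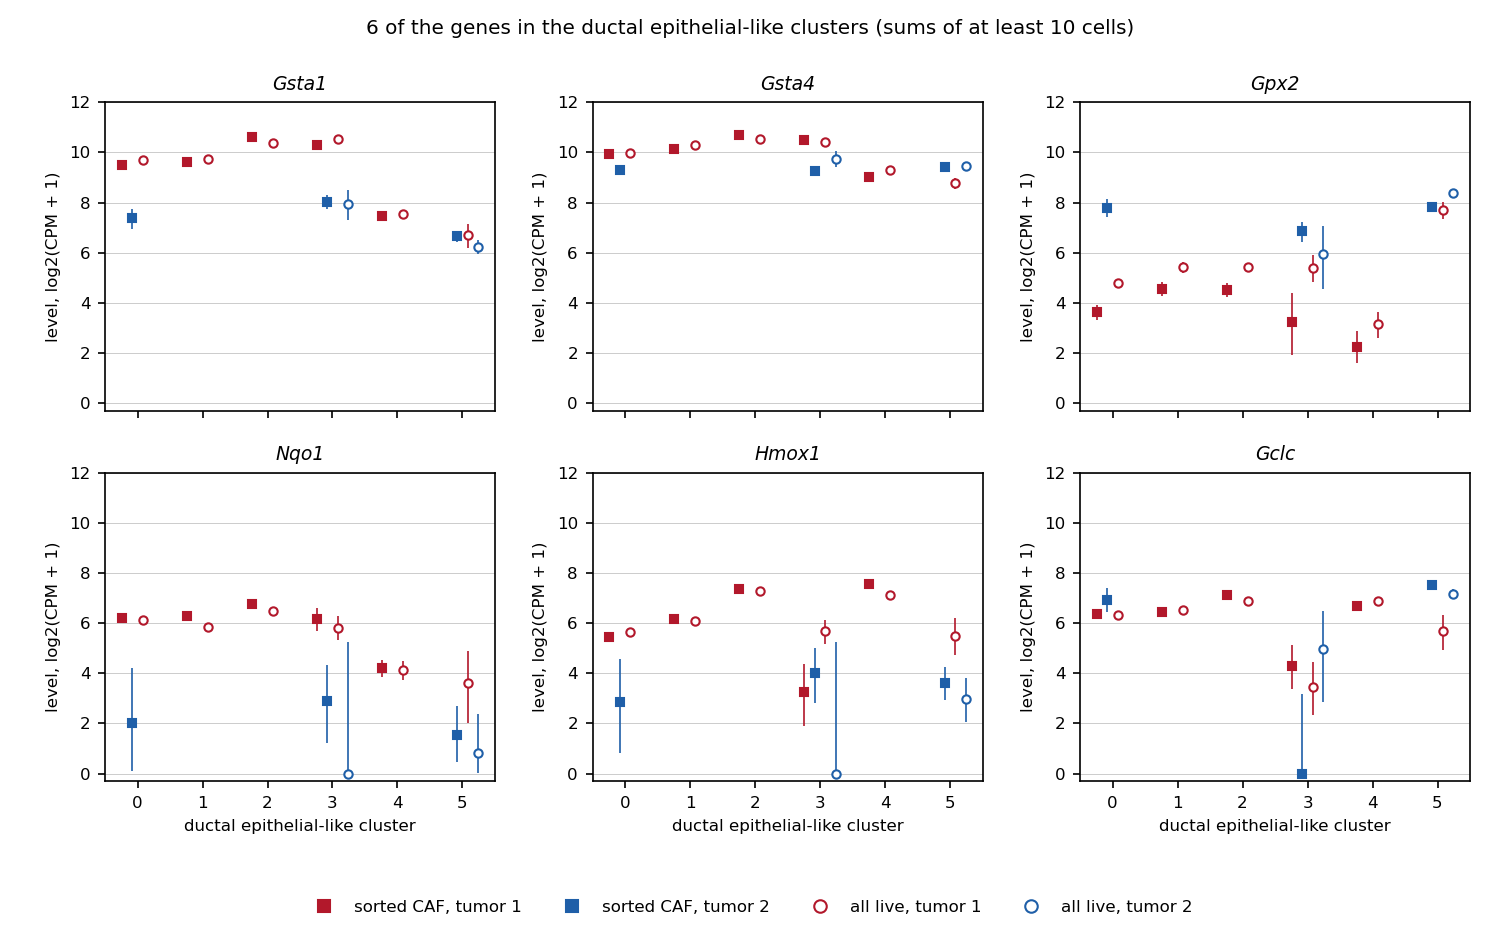
Levels of 6 genes as log2(CPM + 1) in ductal-like clusters 0 to 5; each point is the sum of at least 10 cells of 1 library, squares are sorted CAF and circles all live, red is tumor 1 and blue tumor 2, and bars are 95% exact Poisson intervals. Gpx2 is at 208 CPM or above in all 3 sums of cluster 5, Gsta1 and Nqo1 are low in cluster 4, and Hmox1 is high in clusters 2 and 4.

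Between CAF states, Gpx3 varied by tumor more than by named state. Inflammatory-like fibroblasts, which carry cytokine genes, had 2940 and 696 CPM of Gpx3 in tumors 1 and 2, against 5042 and 546 CPM in cells named myofibroblast-like. That class rests on different cells in each tumor: in tumor 1 it holds 182 cells of subcluster 0, whose markers are Thy1, Col12a1, Thbs2 and Mmp11 and no contractile gene, 52 of contractile subcluster 3 and 16 of cycling subcluster 5, against 6, 283 and 123 cells of these in tumor 2. Subcluster 0 met 4 myofibroblast and 2 inflammatory markers, and its name held at the coarser clustering. With doublets kept, the matching cluster (Gpnmb, Cpxm2 and Apoe among its top genes) met 3 myofibroblast and 4 inflammatory markers. At a finer reclustering it met 3 and 5. In both of these runs it stayed unnamed, with Clec3b, Has1, Pi16 and Gsn among the inflammatory markers met. Gpx3 was lower in inflammatory-like cells of tumor 1 and higher in those of tumor 2. The log2 fold change of -0.55 ± 0.925 did not pass (edgeR adjusted p = 0.984). Without subcluster 0, an alternative chosen after seeing the data, the log2 fold change was 1.06 and did not pass either (edgeR adjusted p = 0.563; range over its alternatives 0.0757 to 1). None of the 8 members tested passed by edgeR, also at an unadjusted p under 0.05, or by DESeq2. Of all genes 0.154% were called by edgeR and 4.99% with the tumor as a block. Gpx2 and Slc7a11 did not pass the filter on low counts and were not tested. Slc7a11 stood at 28.4 CPM in inflammatory-like against 3.12 CPM in myofibroblast-like cells of tumor 1, and at 1.21 against 1.79 CPM in tumor 2. Over its own 16920 genes DESeq2 called 139. Txnrd1 was lower in inflammatory-like cells of both tumors, at 41.4 and 46.5 CPM against 81.5 and 71.9 CPM in myofibroblast-like cells, without passing (-0.68 ± 0.335; edgeR adjusted p = 0.672). Gsta4 was called lower in inflammatory-like cells without myofibroblast-like tumor 2 (log2 fold change -2.07). That fit sets both tumors against tumor 1 alone, so it mixes state with tumor. Inflammatory-like cells had 38.8 CPM of Gsta4 against 61.8 CPM in myofibroblast-like cells in tumor 1, and 3.93 against 2.87 CPM in tumor 2. With the tumor as a block the log2 fold change was -0.14 ± 0.414 (edgeR adjusted p = 0.932).

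The highest Gpx3 level lay in subcluster 0 (188 cells), at 7335 CPM in the sorted CAF and 8019 CPM in the all live library of tumor 1. Gpnmb, Cpxm2 and Apoe were among the top genes of subcluster 0. Subcluster 1 (Sema3c and Cd55 among its top genes) had 3066 CPM in the sorted CAF and 2951 CPM in the all live library of tumor 1, against 645 and 910 CPM in those of tumor 2. Subcluster 3, the contractile cells, had 1819 and 1094 CPM in the same libraries of tumor 1 and 510 and 426 CPM in those of tumor 2. Subcluster 4, which stayed unnamed, had 1075 CPM in the sorted CAF and 1147 CPM in the all live library of tumor 2, and cycling subcluster 5 had 647 and 466 CPM there; over both fractions subcluster 5 had 861 CPM (752 to 982) in 16 cells of tumor 1 and 636 CPM (598 to 676) in 123 cells of tumor 2. Subcluster 6 (led by Cxcl13) had 744 CPM in the sorted CAF and 690 CPM in the all live library of tumor 2, and 2794 CPM in 11 cells of the all live library of tumor 1. Gpx3 was thus higher in tumor 1 in subclusters 1, 3, 5 and 6, those with at least 10 cells in both tumors. The macrophage marker Apoe was also high in subcluster 0 of tumor 1, at 7283 CPM in the sorted CAF and 6538 CPM in the all live library. It was higher still in subcluster 6 of tumor 1, at 9535 CPM in 4 sorted CAF cells and 9809 CPM in 11 all live cells. The other macrophage markers in subcluster 0 summed to 47.1 CPM in the sorted CAF and 158 CPM in the all live library. They summed to 24790 and 19210 CPM in macrophage-like cells of the all live libraries.

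**Figure D4:**
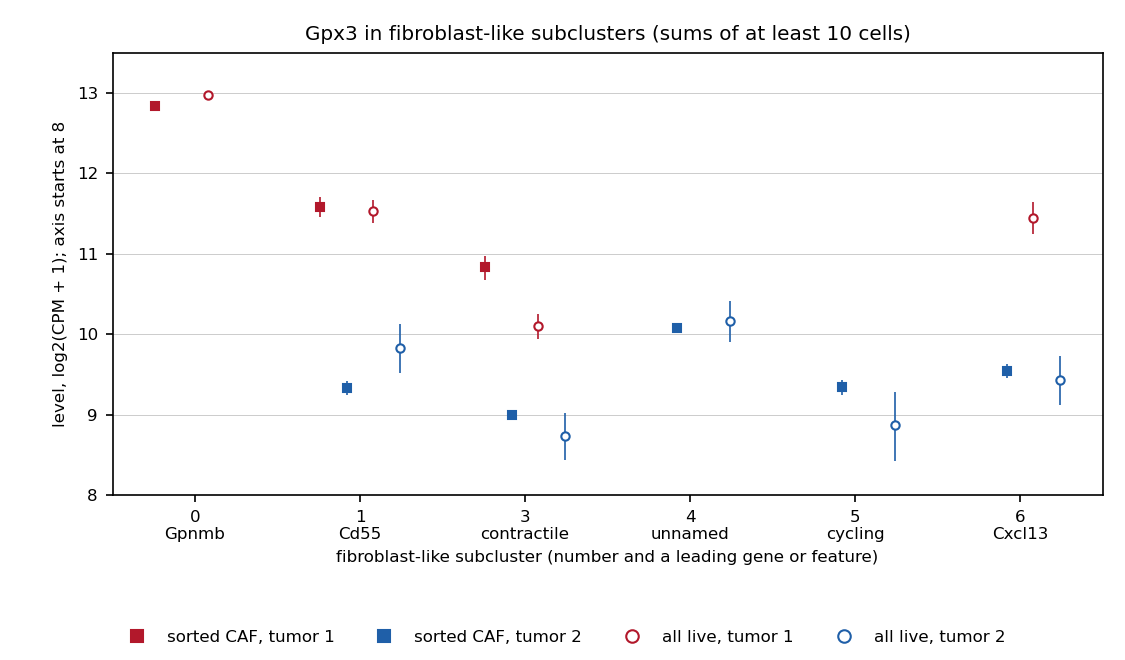
Gpx3 level as log2(CPM + 1) in 6 fibroblast-like subclusters, on an axis that starts at 8; each point is the sum of at least 10 cells of 1 library, squares are sorted CAF and circles all live, red is tumor 1 and blue tumor 2, and bars are 95% exact Poisson intervals. Where a subcluster has points of both tumors, those of tumor 1 lie above those of tumor 2.

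Among myeloid cells, macrophage-like clusters held both Slc7a11 and Hmox1, while a neutrophil-like cluster was high in Slc7a11 and low in Hmox1. Neutrophil-like cluster 22 (S100a9 and Retnlg among its top genes) had 553 CPM of Slc7a11 (interval 493 to 618) and 26.5 CPM of Hmox1 (14.8 to 43.7) in the all live library of tumor 2. Neutrophil-like cluster 25, from tumor 1, had 44.3 CPM of Slc7a11 (20.3 to 84.2). Camp, Ngp and Elane, genes of immature granulocytes, were among the top genes of cluster 25. Txnrd1 differed the same way, at 180 CPM in cluster 22 and 49.3 CPM in cluster 25. The neutrophil-like classes of the tumors thus rest on different clusters, and their levels cannot be set against each other by tumor. Macrophage-like cluster 10 had Chil3, Mmp12 and Arg1 among its top genes. It had 185 CPM of Slc7a11 in tumor 1 and 184 CPM in tumor 2, within counting error of each other. Its Hmox1 level was 285 CPM (265 to 305) in tumor 1 and 180 CPM (144 to 221) in tumor 2. In cluster 11 (the monocyte genes Ms4a4c and Ccr2 among its top genes) Slc7a11 stood at 188 CPM (118 to 285) in tumor 1 and 50.8 CPM (41.4 to 61.6) in tumor 2. Hmox1 in cluster 21 (Ms4a7 and Ccl12 among its top genes) stood at 387 CPM (299 to 494) in 24 cells of tumor 1 and 83.1 CPM (73.5 to 93.7) in 858 cells of tumor 2. Cluster 19 had Retnla and Folr2, genes of tissue-resident macrophages, among its top genes. It held 483 CPM of Gpx3 in tumor 1 and 50.7 CPM in tumor 2, and was higher in tumor 1 like the fibroblast-like cells.

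**Figure D5:**
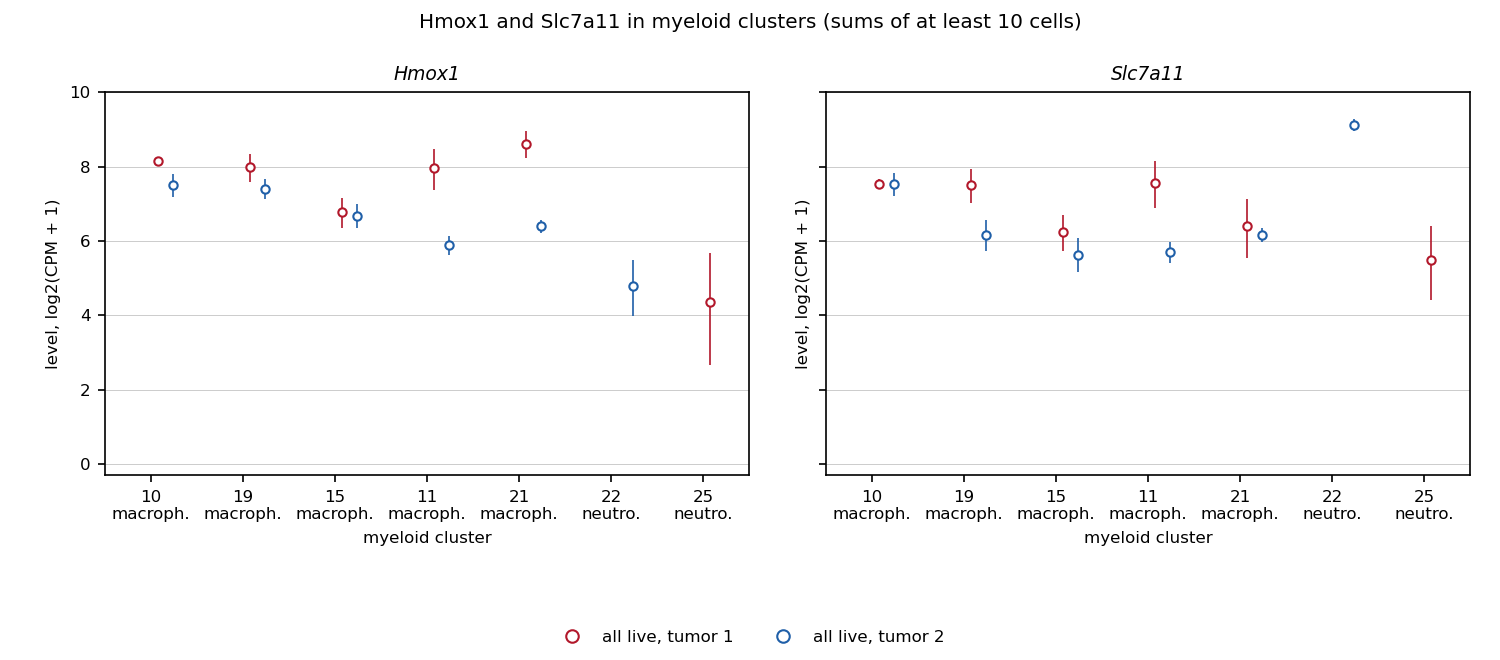
Levels of Hmox1 and Slc7a11 as log2(CPM + 1) in 7 myeloid clusters of the all live libraries; each point is the sum of at least 10 cells, red is tumor 1, blue is tumor 2, and bars are 95% exact Poisson intervals. Neutrophil-like cluster 22 has the top Slc7a11 level, 553 CPM, and one of the low Hmox1 levels, 26.5 CPM.

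The 2 fractions were not separated in any of the 10 genes. In whole libraries none of the 10 passed edgeR, at an unadjusted p under 0.05 or by DESeq2; of all 14040 genes 0% were called by edgeR, with 528 at an unadjusted p under 0.05, and DESeq2 called 482 of the 20197 genes it tested. Gpx3 came closest, at 292 and 600 CPM in the sorted CAF libraries against 207 and 51.9 CPM in the all live libraries (log2 fold change 1.70 ± 0.832). Within ductal-like cells most members differed more between tumors than between the fractions of a tumor. The class rests on different clusters, with 32 cells of cluster 5 and 2078 others in tumor 1, and 226 and 75 in tumor 2. Within tumor 2, cluster 5 gave 74 of 128 sorted CAF and 152 of 173 all live ductal-like cells. Cluster makeup and level cannot be told apart in these sums. Nqo1 stood at 71.8 and 2.75 CPM in the sorted CAF and 62.6 and 0.638 CPM in the all live ductal-like cells of tumors 1 and 2. Hmox1 stood at 98.4 and 11.8 CPM in the sorted CAF ones, against 90.3 and 7.02 CPM in the all live ones. Gclc was near level throughout, at 96.7 and 135 CPM in the sorted CAF ones against 93.2 and 130 CPM in the all live ones. By edgeR none of the 10 passed in ductal-like cells, also at an unadjusted p under 0.05, or by DESeq2, with 0% of 12261 genes called by edgeR, 96 at an unadjusted p under 0.05 and 147 (1.2%) with the tumor as a block. DESeq2 called 36 of the 18012 genes that it tested. Gpx2 was lower in the sorted CAF ductal-like cells of both tumors, at 14.9 and 188 CPM against 34.1 and 283 CPM in the all live ones, and the edgeR fold with the tumor as a block was -0.85 ± 0.193 on the log2 scale (adjusted p = 0.0701). The Epcam level, which the gate selects against, moved the same way in these cells, and its part was not tested. Among fibroblast-like cells 8 members were tested and none passed edgeR (0 at an unadjusted p under 0.05, 0 by DESeq2), with 0% of 8639 genes called by edgeR, 63 at an unadjusted p under 0.05 and 82 (0.949%) with the tumor as a block. DESeq2 called 17 of the 17271 genes that it tested. Without the sorted CAF sum of tumor 1, Gsta1 (log2 fold change -5.90) and Gsta4 (-3.04) were called lower in sorted CAF fibroblasts. That fit sets tumor 2 alone against all live fibroblasts of both tumors, so it mixes fraction with tumor. Within tumor 2, sorted CAF levels were 0.281 CPM of Gsta1 and 3.94 CPM of Gsta4, against 0 and 2.82 CPM in all live. Within tumor 1 they were 11.85 and 52.5 CPM, against 36.3 and 62.8 CPM. Without the filter on low counts, Gsta1 was also called lower (log2 fold change -2.50, edgeR adjusted p = 0.0167).

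Of 93 other genes in 8 pathway lists, those of glutathione metabolism moved in both directions. The lists too were chosen with earlier results of these data known, so the shares over all genes give scale only. Ductal-like over fibroblast-like cells had 6 of 27 glutathione genes higher and 8 lower, where 9.71% of all genes were higher and 14.1% lower, with a median log2 fold change of 0.42 against 0.07 over all genes. Higher were Gsto1, an omega-class transferase (mean of 2 tumors 1749 CPM in ductal-like against 95.1 CPM in fibroblast-like cells; edgeR adjusted p = 0.00218), and Gsr and Gss, which regenerate and complete glutathione. Lower were Gpx7 (0.973 CPM in ductal-like against 253 CPM in fibroblast-like cells; edgeR adjusted p = 0.000506) and Gpx8 (11.2 CPM in ductal-like against 398 CPM in fibroblast-like cells), peroxidases of the endoplasmic reticulum, Ggt5 and Gstm2. Of the other lists in that comparison, 3 of 6 NADPH supply genes, 3 of 7 ATF4 response genes and 3 of 15 carbonyl, quinone and superoxide genes were higher, while Sod3, the extracellular superoxide dismutase, was lower (1.08 CPM in ductal-like against 213 CPM in fibroblast-like cells). By edgeR none of the 7 heme and iron genes was called, and 1 was called higher with the tumor as a block, where 32.1% of all genes were called. The dissociation stress list, 10 genes known to respond to enzymatic digestion, had 2 higher and 1 lower, to be read against the same shares of all genes.

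In the comparison with macrophage-like cells 14.8% of all genes were higher and 12.7% lower in ductal-like cells. There ductal-like cells had 13 of 27 glutathione genes higher and 4 lower (median log2 fold change 1.30 against 0.20 over all genes), and 7 of 15 carbonyl, quinone and superoxide genes higher and 1 lower. The aldo-keto reductase Akr1b8 was among the higher ones (445 CPM in ductal-like against 9.68 CPM in macrophage-like cells; edgeR adjusted p = 0.00386). Bach1, a repressor that competes with NRF2 at AREs, was lower in ductal-like cells (16.6 CPM, against 75.8 CPM in macrophage-like cells, edgeR adjusted p = 0.0129). Of the 8 genes listed as NRF2 and its regulators, Bach1 was the only 1 called there without a block, to be read against the 12.7% of all genes that were lower. With the tumor as a block 2 of the 8 were lower, where 35.7% of all genes were called. Macrophage-like over fibroblast-like cells had 4 of 27 glutathione genes higher, Glrx, Gpx1, Hpgds and Gsr, and 8 lower (median -1.03 against -0.06 over all genes), and 3 of 7 heme and iron genes higher, where 11% of all genes were higher and 16.9% lower. Bach1 was lower in ductal-like than in fibroblast-like cells too (log2 fold change -1.83 ± 0.552, edgeR adjusted p = 0.0446). It was again the only 1 of these 8 genes called, where 14.1% of all genes were lower. Macrophage-like over fibroblast-like cells had none of these genes called without a block. With the tumor as a block 1 was higher and 1 lower there, where 35% of all genes were called. Nfe2l2 itself was called by edgeR without a block in none of the 8 comparisons. In ductal-like cells it stood at 144 and 168 CPM in the sorted CAF libraries and 120 and 140 CPM in the all live ones, against 191, 135, 147 and 100 CPM in the same libraries of fibroblast-like cells.

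Over the 50 sums of at least 20 cells per library and cluster, which share libraries and depth, the genes most like each member by Pearson's r of log2(CPM + 1) differed by member. Gsta1 was most like Anxa10 (0.98), Tff1 (0.96) and Wfdc2 (0.95), and Gsta4 most like Sprr1a (0.94), Krt8 and Ociad2. Gpx2 was most like Fxyd3 (0.92), Fermt1 and Cldn6, and Gpx3 most like Thbs2 (0.87), Prelp and Cygb. Hmox1 was most like the lysosomal genes Lamp1 (0.79), Ctsb and Atp6v0d1. Slc7a11 was most like Pilra (0.81), Adssl1 and Fam134b. Gclm was most like Lgals4 (0.85), Btc and Phlda2, and Nqo1 most like Cct7 (0.87), Fkbp1a and Psmc1. Txnrd1 (Zcrb1, 0.75) and Gclc (Zfp706, 0.66) had the weakest likeness. Among the members themselves, Gsta1 went with Gsta4 (0.92), Gclm (0.82) and Nqo1 (0.80), while Gpx3 ran against Gpx2 (-0.52) and Slc7a11 (-0.50).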

How the data were processed

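The authors deposited UMI counts for each gene in each barcode. Cell Ranger 2.0.0, CASAVA 1.4 and the build mm10 are named in the submitters' processing notes, and the way barcodes were selected is not stated. The design text speaks of technical replicates, which could not be told apart, so each library is 1 sample. Both libraries with the same number share a description prefix and were taken as 1 tumor. Their tumor differences correlated at 0.646 across 14262 genes, so the tumor was also used as a block. The genotype is not reported in full here. An EpCAM antibody is not among the listed stains.

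Barcodes needed 500 genes or more and no more than 10% mitochondrial UMIs. Scrublet in scanpy 1.11.5 marked 0.488%, too few to have worked, so the top scores were removed instead, 157 cells at a rate of 0.8% for every 1000 barcodes. Libraries shared 4 to 6 barcodes pairwise. Leiden clusters (2000 variable genes without the members and pathway genes, 30 components, resolution 1) were named from marker lists, by 3 or more markers at 2 times the median cluster and in 20% of cells. Fibroblast-like cells were reclustered at 0.5. Names ending in "-like" are rebuilt.

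Counts were summed per tumor and class, or per library (20 cells or more), and tested two-sided with edgeR 4.0.16 in R 4.3.3 (TMM, filterByExpr at 10 counts, quasi-likelihood, Benjamini-Hochberg at 0.05 over all genes tested). The 4 class comparisons share 1 fit and its sums. Those sums pool both fractions, which hold the classes unequally. Macrophage-like cells numbered 1 and 24 in the sorted CAF libraries of tumors 1 and 2, against 494 and 1849 in the all live ones. Fibroblast-like cells numbered 173 and 877, against 138 and 115. Class and fraction are thus partly mixed, except in the runs on all live libraries alone. The SE was taken from the fold change and its F statistic. Without a block, the p-values measure the spread between 2 tumors. With the tumor as a block, they measure the spread left after the mean difference between the tumors is removed. Code was tested on simulated data. DESeq2 1.42.0, other filters and scaling, left-out sums, doublets kept and other resolutions were alternatives. Other pathway genes were named by smallest p, up to 5 each way; Bach1 against fibroblast-like cells and Nfe2l2 were added after their values were seen. The members and lists were chosen with earlier results of these data known.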

Additional observations from a re-analysis of the deposited data

Results flagged for a closer look

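Some differences had opposite directions in the tumors, each beyond counting error, and the difference between the tumors was not tested because each tumor gives 1 value. Hmox1 in ductal-like over fibroblast-like cells was 1.72-fold (95% counting interval 1.44 to 2.06) in tumor 1 and 0.420-fold (0.295 to 0.585) in tumor 2. In inflammatory-like over myofibroblast-like fibroblasts, Gpx3 was 0.583-fold (0.548 to 0.620) in tumor 1 and 1.28-fold (1.21 to 1.35) in tumor 2, and Hmox1 was 0.407-fold (0.171 to 0.833) and 1.44-fold (1.09 to 1.91) in these tumors. The myofibroblast-like class sets different cells against each other in the tumors. It is mostly subcluster 0 in tumor 1 (182 cells) and subclusters 3 and 5 in tumor 2 (283 and 123 cells). The cluster matching subcluster 0 stayed unnamed with doublets kept and at a finer reclustering. In sorted CAF over all live ductal-like cells, Gsta1 was 0.970-fold (0.950 to 0.990) in tumor 1 and 1.67-fold (1.35 to 2.07) in tumor 2, and Gclm was 1.06-fold (1.02 to 1.10) and 0.830-fold (0.702 to 0.984). In tumor 2, cluster 5 gave 74 of the 128 sorted CAF and 152 of the 173 all live ductal-like cells. Cluster makeup and level cannot be told apart in these folds.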

How the results depend on the processing

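No result changed direction past its threshold. Of 817 alternative values for single members, 770 kept their side of the threshold, 25 came to pass it and 22 no longer did; of 14 calls, 6 held in every setting. Counts of genes called moved with the setting, and the cause was not tested. Sorted CAF against all live gave 0 in whole libraries (482 by DESeq2, 0 with every library left out in turn); in ductal-like cells 0 (2 with no filter, 36 by DESeq2, 147 with the replicate block, 0 with a library left out); and in fibroblast-like cells 0 (65 with no filter, 17 by DESeq2, 82 with the replicate block, 8 with doublets kept, 16 to 64 with a library left out). Ductal-like against fibroblast-like cells gave 3007 (1140 to 4283 with a sum left out, 1432 in all live libraries alone), and against macrophage-like cells 3477 (1629 to 4395 with a sum left out). Mesothelial-like against fibroblast-like cells gave 149 (885 with no filter, 457 by DESeq2, 321 with the replicate block, 1 in all live libraries alone, 0 to 11 with a sum left out). Macrophage-like against fibroblast-like cells gave 3526 (1858 to 2456 with a sum left out, 2166 in all live libraries alone). Inflammatory-like against myofibroblast-like fibroblasts gave 16 (452 with no filter, 139 by DESeq2, 518 with the replicate block, 322 with doublets kept, 131 at resolution 0.8, 0 to 432 with a sum left out and 257 without subcluster 0, an alternative chosen after seeing the data, as leaving out cluster 5 was). The replicate block, from tumors shared between libraries, changed the member calls of Gsta1 in both ductal-like comparisons and of Hmox1 in both macrophage-like ones, and no other. Where a sum was left out, the lone tumor of that class is assumed to vary like the others. Without the low-count filter, calls also came for members that the report gives as not passing: Gsta1 and Nqo1 in ductal-like over fibroblast-like cells, Gsta1, Gpx3 and Hmox1 in ductal-like over macrophage-like, Gsta4 and Gpx3 in mesothelial-like over fibroblast-like, and Gsta4, Nqo1 and Hmox1 in macrophage-like over fibroblast-like cells. By the mean of libraries the top class was fibroblast-like for Gpx3 and pericyte-like for Txnrd1, and adipocyte-like and neutrophil-like in pooled cells. Depth limits shares of cells with a UMI, which in ductal-like cells were between 12.9% and 89.6% unthinned and between 1.66% and 63.7% at 1500 UMIs a cell.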
